A study of Mus musculus with 13 samples.

Results

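RNA-seq libraries of differentiating female mouse embryonic stem cells (mESC) carrying the hairpin Smarcc1.6 were compared with libraries of the same cells carrying the nonsilencing control hairpin Nons. The comparison comprised 8 of the 13 libraries of the study, namely 4 with Smarcc1.6 and 4 with Nons, and each Smarcc1.6 library was set against the Nons library of its own day. Levels are given as log2 CPM, the log2 of a gene's reads scaled to the same number of mapped reads in each library. A test was made for 13406 of the 25965 genes in the table, those whose average across all 12 differentiating libraries was at least 0 log2 CPM. The cells were F1 hybrids of FVB/NJ and CAST/EiJ mice that had been expanded in 2i medium and weaned into a serum-containing differentiation medium. All cultures of both groups were transduced with a retroviral hairpin on day 2, were placed under puromycin on day 3 and were collected on days 4, 5, 6 or 7. Each group had 1 library per day. No text says whether the 4 days of a group came from separate cultures, so the p-values measure the spread between these libraries, with day removed. A second hairpin against the same gene, Smarcc1.7 (4 libraries), was used to estimate that spread and is given beside the main values, and these values share the Nons libraries. Depth was 29667088 to 63548079 mapped reads in the 8 libraries. The day 6 libraries differed from the others in read assignment, with 85.6% to 86.5% of mapped reads in genes. On days 4, 5 and 7 the share was 91.6% to 92.6%. The differences between Smarcc1.6 and Nons were therefore taken within a day. Statements that set a day beside another, such as those on peak days, can carry this shift. Pou5f1, a defining gene of pluripotent cells, stood at 9.64 to 10.54 log2 CPM in the 8 libraries, and the Y-linked genes Ddx3y, Kdm5d, Eif2s3y and Uty had 0 reads in all 8.

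Smarcc1 encodes a scaffold subunit of the BAF complex, an assembly of the SWI/SNF family that uses the energy of ATP to slide or evict nucleosomes. In mESC a specialised form of the complex sits at enhancers and promoters together with the pluripotency factors. When female mESC leave the naive state, they shut down the naive pluripotency network, pass through a formative state and then enter lineages such as the primitive streak. In the same interval the long noncoding RNA Xist coats 1 of the 2 active X chromosomes and begins X chromosome inactivation (XCI). The comparison asks which genes and functions differ when Smarcc1 is depleted during that transition.

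The hairpin sequences are shown because they define what was targeted. Each was a microRNA-type short hairpin whose guide strand has 22 bases. The guides, with bases 2 to 8 (the seed) in capitals, read 5′ to 3′ as follows.
Smarcc1.6: tGTAACTGcttcttcatcctgc
Smarcc1.7: tTGCTCATcttcttccttctga
Nons: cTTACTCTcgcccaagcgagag
The guide of Smarcc1.6 was complementary over all 22 bases to 1 stretch of the Smarcc1 mRNA, in the coding sequence of exon 13 of 28 (ENSMUST00000088716.11, plus strand, mm10 chr9:110177472-110177493). The site, with the 7 bases that pair with the seed in capitals, is given here.
Smarcc1.6 site: gcaggatgaagaagCAGTTACa
In the GENCODE M21 transcripts no other gene held these 22 bases or the 21 that pair with guide bases 2 to 22. The Smarcc1.7 guide matched the coding sequence of exon 11 (chr9:110173911-110173932), and the Nons guide matched no transcript. The Smarcc1.6 and Smarcc1.7 seeds thus differ, and so do their sites.

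Smarcc1 (chromosome 9, 110132037 to 110240178 in the deposited table) was lower in Smarcc1.6 than in Nons on all 4 days. Its level in Nons was 9.10, 8.87, 8.28 and 7.89 log2 CPM on days 4, 5, 6 and 7. In Smarcc1.6 it was 7.42, 7.40, 7.28 and 7.28. The 4 Smarcc1.6 libraries lay close together and below every Nons library, while the Nons level itself fell with day, so that the difference narrowed from -1.68 on day 4 to -0.61 on day 7. Over the days the difference was -1.19 ± 0.48 (SD, n = 4 same-day differences), which corresponds to 43.9% of the Nons level (limma, standard error 0.15, adjusted p = 0.00198). The narrowing itself passed the test, at 0.37 log2 units per day (adjusted p = 0.0393). An exact permutation test on the 4 differences, two-sided, gave p = 0.125, the smallest that its 16 arrangements allow. With Smarcc1.7 the level was 7.96, 7.78, 7.17 and 7.51 log2 CPM. Smarcc1 was lower with Smarcc1.6 than with Smarcc1.7 on 3 of 4 days, by 0.26 on average, with 95% limits of the difference from -0.60 to 0.08, so the data do not order the strength of the 2 hairpins.

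**Figure D1:**
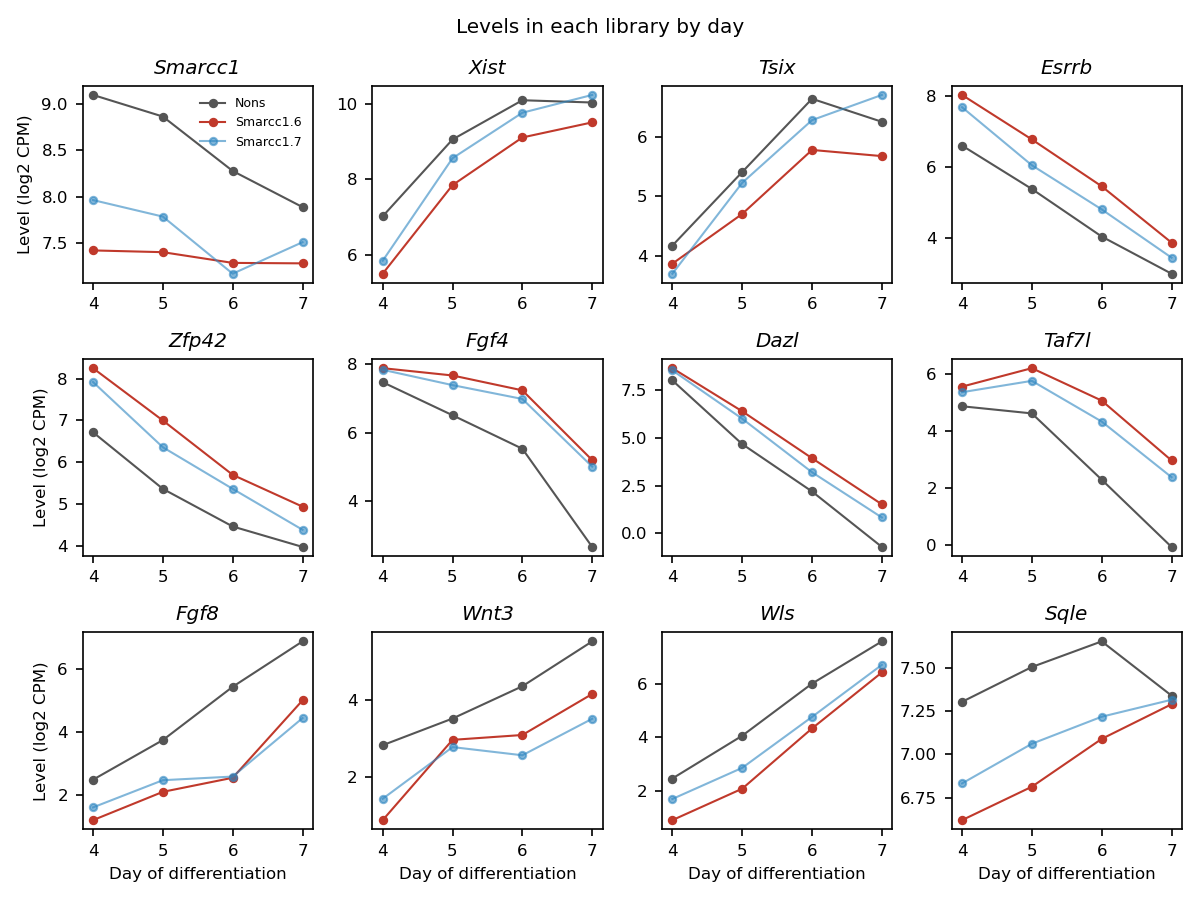
Level of 12 genes (log2 CPM, y axis) by day of differentiation (x axis) in Nons, Smarcc1.6 and Smarcc1.7, with 1 point per library and a separate scale for each gene. Smarcc1 stayed between 7.28 and 7.42 log2 CPM with Smarcc1.6 while it fell from 9.10 to 7.89 in Nons. Xist was lower, and Esrrb and Zfp42 higher, with Smarcc1.6 than with Nons on every day.

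Xist (X chromosome, 103460375 to 103483217, minus strand) accumulated over the days in both groups and was lower with Smarcc1.6 throughout. It stood at 7.02, 9.05, 10.09 and 10.03 log2 CPM in Nons. In Smarcc1.6 it stood at 5.51, 7.85, 9.11 and 9.51. Each Smarcc1.6 library was below its same-day control, although the ranges of the groups overlapped because of the rise with day. The difference was -1.06 ± 0.42 (SD, n = 4), or 48.0% of the Nons level (limma, adjusted p = 0.00516), and it narrowed by 0.32 per day (adjusted p = 0.0168). The exact permutation test again gave 0.125, its smallest possible value. With Smarcc1.7 the difference from Nons was -0.45 (adjusted p = 0.16). Xist was lower with Smarcc1.6 than with Smarcc1.7 on all 4 days, by 0.61 on average (95% limits -0.97 to -0.24), but this did not pass the adjustment over all genes (unadjusted p = 0.00375, adjusted p = 0.989). Tsix, the antisense transcript that overlaps Xist on the plus strand, was 4.17, 5.41, 6.65 and 6.26 log2 CPM in Nons and 3.87, 4.70, 5.78 and 5.68 in Smarcc1.6. It was lower by 0.61 on the log2 scale (adjusted p = 0.0391), but the strand setting of the counting was not given, so reads of Xist and Tsix cannot be told apart where the genes overlap.

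Across the tested genes 1247 (9.3%) passed an adjusted p of 0.05 in limma, 750 of them higher (5.59%) and 497 lower (3.71%) with Smarcc1.6. The called genes that rose did so by more than those that fell, but they stood at lower levels. The median level over the 8 libraries was 3.19 log2 CPM among genes higher and 4.65 among genes lower. The mean asked for testing covers 4 Nons and 8 knockdown libraries. It thus admits genes low only in Nons more readily than the reverse. Of the genes higher 12 had 0 reads in at least 1 Nons library, and of the genes lower 0 had 0 reads in any Smarcc1.6 library. The median difference was 0.94 on the log2 scale among genes higher (interquartile range 0.56 to 1.47) and -0.61 among genes lower (-0.87 to -0.41). A difference of at least 1 was reached by 353 of the higher genes and 92 of the lower, and one of at least 2 by 90 higher genes and 1 lower gene. Of the 1247 genes, 1170 (93.83%) had the same sign on all 4 days, against 28.54% of all tested genes. The calls were made on the average of these same differences, so a high share follows in part from the selection. The groups were fully separate, with all 4 Smarcc1.6 libraries above or below all 4 Nons libraries, for 139 genes higher (1.04% of those tested) and 83 lower (0.619%). The calls rest on the spread shared with the Smarcc1.7 libraries. When only the 8 Smarcc1.6 and Nons libraries were fitted, all 1247 genes had an unadjusted p under 0.05, but 57 passed the adjusted threshold of 0.05 and 649 an adjusted 0.1. Without day 5 or without day 6 the count was 178 or 202.

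**Figure D2:**
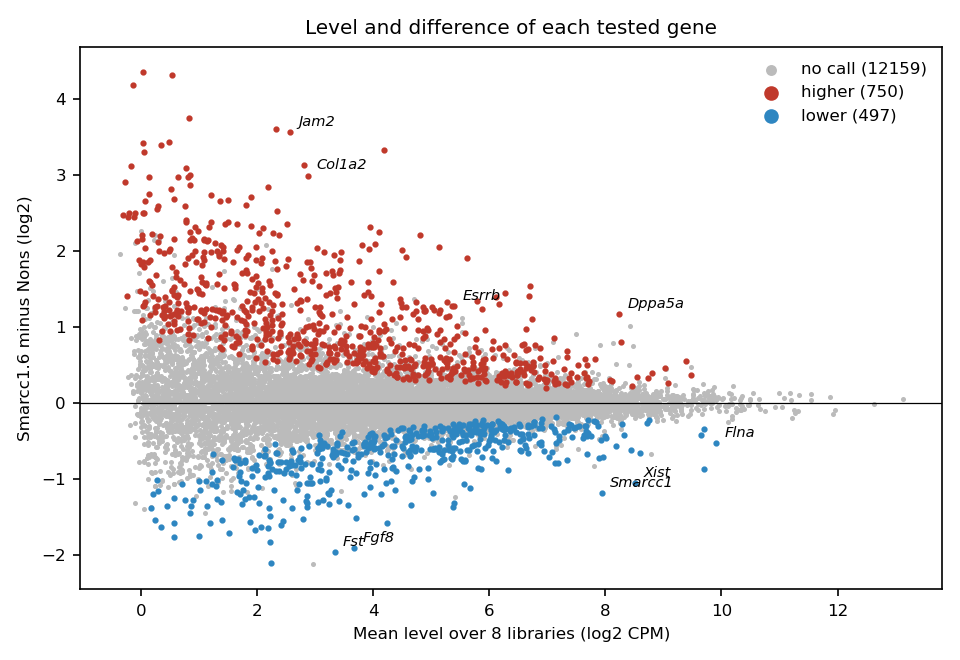
Difference between Smarcc1.6 and Nons (log2, y axis) against the mean level over the 8 libraries (log2 CPM, x axis), 1 point per tested gene. The 750 genes higher reach larger differences than the 497 genes lower, and the largest are among genes of low level.

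The largest rises and falls were taken among called genes with the same sign on all 4 days and a mean of at least 2 log2 CPM. Of the 8 largest rises, 5 were genes that declined from day 4 to day 7 in both groups. Jam2, a junctional adhesion molecule, fell from 5.60 to 1.72, -0.28 and -3.89 log2 CPM in Nons (2894, 153, 29 and 2 reads), and was at 7.56, 5.22, 2.93 and 1.71 in Smarcc1.6. Fez1, an adaptor of kinesin transport, was at 3.56, 0.84, -0.01 and -1.31 in Nons and at 5.50, 4.53, 2.93 and 1.49 in Smarcc1.6. 2410004A20Rik, listed under a clone name, was at 6.29, 2.91, 1.43 and -0.50 in Nons and at 8.04, 6.79, 4.80 and 3.83 in Smarcc1.6. Each declined in both groups and was higher with Smarcc1.6 on every day. Their differences were 3.57 for Jam2 (adjusted p = 0.00198), 2.84 for Fez1 (adjusted p = 0.00027) and 3.33 for 2410004A20Rik (adjusted p = 0.000521). The other declining genes were 1700029P11Rik (3.60) and Tmc3 (2.35), and the remaining rises were Gm13119 (3.13), Gm12794 (2.52) and Col1a2.

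Col1a2, a chain of type I collagen, differed from the other 7 in that its level in Nons was higher on day 7 than on day 4. Its level was 1.43, 0.89, 0.88 and 2.36 log2 CPM in Nons and 3.33, 4.14, 4.35 and 5.71 in Smarcc1.6. All Smarcc1.6 libraries were above all Nons libraries, and the difference was 2.99 (adjusted p = 0.00049). Col1a2 is also a marker of fibroblasts, a cell type that such cultures can hold. The summed level of 6 fibroblast markers (Col1a1, Col1a2, Col3a1, Thy1, Postn and Dcn) was 9.84 to 89.3 CPM in Nons and 34.7 to 188 CPM in Smarcc1.6. The partner chain Col1a1 differed by 0.13 (adjusted p = 0.753) and Dcn by -0.32 (adjusted p = 0.684), Col3a1 stood at -2.18 to 1.33 log2 CPM, and Postn was at 0 reads in at least 1 library. Among the 21 tested genes of fibroblasts and matrix, 2 rose, Col1a2 among them, and 2 fell, Col5a2 and Col4a1.

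The largest falls included signalling molecules of the gastrulating embryo. Fst encodes follistatin, a secreted antagonist of activin, and stood at 1.77, 4.08, 5.30 and 6.15 log2 CPM in Nons and at 1.10, 2.08, 2.12 and 4.12 in Smarcc1.6. Fgf8, a growth factor of the primitive streak, stood at 2.50, 3.74, 5.42 and 6.86 in Nons and at 1.22, 2.11, 2.56 and 5.00 in Smarcc1.6. Both were induced in both groups, and each day's level was lower with Smarcc1.6. Their differences were -1.97 (adjusted p = 0.0255) and -1.91 (adjusted p = 0.00418), and with Smarcc1.7 they were -2.22 and -1.85. The rest of the 8 largest falls were Fam38b (-2.11), a mechanically gated channel now named Piezo2, Col5a2 (-1.83), Thsd7a (-1.64), the cannabinoid receptor Cnr1 (-1.64), the basement membrane protein Fras1 and Wls (-1.59).

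Genes were next read by function, in 38 lists of pathways, complexes and cell types. Counts are given beside the shares over all tested genes, 5.59% higher and 3.71% lower, and the median of all tested genes was 0.00 on the log2 scale. The genes named from each list were mostly its called members with the smallest p-values.

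**Figure D3:**
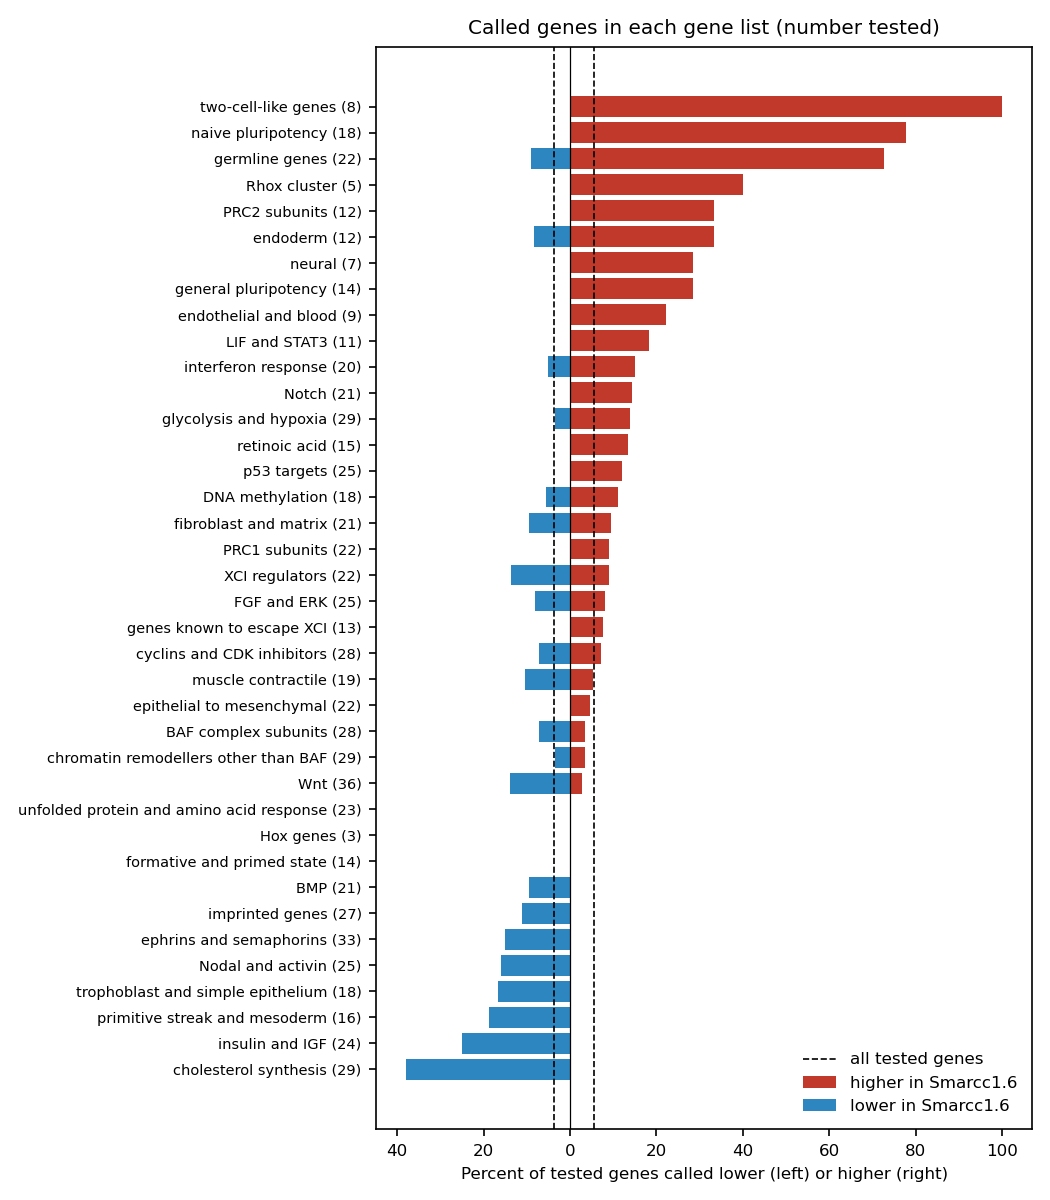
Percent of the tested genes of each of 38 lists that were called higher (right) or lower (left) with Smarcc1.6, with the number tested in brackets and dashed lines at the shares over all tested genes (5.59% higher, 3.71% lower). Genes of the 2-cell-like state, of naive pluripotency and of the germline stand at the top, and cholesterol synthesis at the bottom.

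Naive pluripotency factors were higher with Smarcc1.6. Of 18 genes tested 14 rose and 0 fell, with a median difference of 1.33. Esrrb, an orphan nuclear receptor of the naive network, was at 6.60, 5.38, 4.05 and 3.01 log2 CPM in Nons and at 8.02, 6.77, 5.46 and 3.88 in Smarcc1.6 (difference 1.27, adjusted p = 0.00027). Zfp42, the zinc finger protein Rex1, was at 6.72, 5.36, 4.46 and 3.97 in Nons and at 8.25, 7.00, 5.70 and 4.94 in Smarcc1.6 (1.34, adjusted p = 0.000318). Prdm14, which represses differentiation genes and DNA methylation in the naive state, was at 2.81, 2.00, -0.18 and -1.19 in Nons and at 4.67, 3.49, 2.01 and 0.85 in Smarcc1.6 (1.90, adjusted p = 0.00049). In each of these genes the level declined in both groups and the same-day level was higher with Smarcc1.6. For Zfp42 each Smarcc1.6 library also stood above the Nons library of the day before. For Esrrb this held on days 5 and 6 but not on day 7. Fbxo15 (1.90), Gbx2 (1.91), Tcl1 (1.99), Klf4 (1.75), Klf2 (1.32), Nr5a2 (1.46), Fgf4 (1.45) and Dppa3 (1.19) rose too. Smaller rises were found for Tet2 (0.97), Tfcp2l1 (0.90) and Mybl2 (0.57). The 4 genes that did not pass were Nr0b1 (2.07, adjusted p = 0.0622, with 0 reads in Nons on day 7), Nanog (0.91, adjusted p = 0.087), Tbx3 (0.16) and Klf5 (-0.30). Without day 6 the count was 9 of 18 with a median of 1.30, and in the fit of 8 libraries it was 7. In these bulk libraries more cells in a naive state and more RNA of these genes per cell cannot be told apart.

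Genes of general pluripotency differed less. Of 14 tested 4 rose and 0 fell, with a median of 0.14. The 4 were Dppa5a (1.17), Dppa2 (0.92), Dppa4 (0.82) and Sox2 (0.76). Sox2, a core pluripotency factor that also marks neural progenitors, was at 7.78, 7.21, 6.09 and 3.69 log2 CPM in Nons and at 8.17, 7.59, 7.11 and 4.94 in Smarcc1.6. In the list of LIF and STAT3, the pathway that sustains naive mESC, Socs3 (0.53) and Lif (0.51) rose among 11 tested.

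Germline genes formed the second large group of rises. These genes act in germ cells and meiosis, are expressed at some level in naive mESC and are silenced as the embryo implants, in part by DNA methylation and by a Polycomb complex that contains the E-box binding proteins MGA and MAX. Of 22 tested 16 rose and 2 fell, Dnd1 (-0.69) and Prdm1 (-0.60), and the median was 1.22. Dazl, an RNA-binding protein of germ cells, was at 8.03, 4.68, 2.19 and -0.72 log2 CPM in Nons and at 8.67, 6.41, 3.94 and 1.52 in Smarcc1.6. The gap between the groups was 0.64 on day 4 and 2.24 on day 7, and the average difference was 1.59 (adjusted p = 0.00198). Hormad1, a protein of the meiotic chromosome axis, was at 7.39, 5.24, 0.70 and -1.43 in Nons and at 7.58, 6.80, 4.05 and 2.49 in Smarcc1.6. It was nearly level between the groups on day 4, at 0.18, and differed by 3.92 on day 7 (average 2.25, adjusted p = 0.0182). Piwil2 (2.01), Tex19.1 (1.54), Brdt (1.51), Stag3 (1.40), Mael (1.29), Sycp1 (1.18) and Ddx4 (0.89) also rose. The median same-day difference of the list was 0.37, 1.20, 1.63 and 1.49 on days 4 to 7. Without day 6 the count of rises was 5 of 22 with a median of 1.01, and with only 8 libraries it was 2.

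Promoter sequences of the germline genes are shown because 16 of the 22 tested rose. Windows of 300 bases (250 before and 50 after the start) from RefSeq, GRCm38.p6, were available for 19 of the 22 tested germline genes. The E-box CACGTG, a palindrome that reads the same on both strands, was present in 11 of the 19 (57.9%), against 966 of 9228 tested genes with a window (10.468%) and 7.24% of all 27025 promoters. It was present in 53 of 498 genes called higher (10.6%) and in 35 of 347 called lower (10.1%). Among the 14 germline genes with a window that rose, 8 held it (57.1%), so its share was about the same in the whole list as in the members that rose. Examples upstream of the start, with the E-box in capitals, are these.
Ddx4, chr13:112652324-112652349, minus strand, 26 bases before the start: cgtccgcccgCACGTGcagccgttta
Stag3, chr5:138280329-138280354, plus strand, 167 bases before the start: cgctggagccCACGTGacaggactgc
Taf7l, chrX:134476524-134476549, minus strand, 46 bases before the start: cctcttatacCACGTGacagaactcg
Hormad1, chr3:95559610-95559635, plus strand, 54 bases before the start: aagggtgcgcCACGTGccagtgacag
The E2F motif (TCCCGC or GCGGGA) was found in 9 of the 19 germline windows (47.4%) against 37.3% of tested genes and 20.02% of all promoters. A match describes these letters and is not a measured binding site.

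Genes of the 2-cell-like state, a transient state of a few mESC that resembles the early embryo, were higher with Smarcc1.6. Among the 12 measured members of the list, 8 reached the mean level asked for testing, and these 8 rose. That mean is taken over 4 Nons and 8 knockdown libraries, so a gene that is low with Nons could enter only where it was high in the others. This holds for Zscan4e, with a mean of -1.35 log2 CPM in Nons and 1.63 in Smarcc1.6, and for Tdpoz4, with -0.97 and 0.91, and the count is therefore given as a description. Tcstv1 was at -1.25, 1.51, 1.11 and -0.43 log2 CPM in Nons and at 0.12, 2.83, 3.71 and 2.68 in Smarcc1.6 (difference 2.10, adjusted p = 0.00362). Zscan4d, a zinc finger protein of that state, was at -0.90, 2.98, 2.31 and -0.57 in Nons and at 1.10, 3.72, 4.60 and 3.63 in Smarcc1.6 (2.31, adjusted p = 0.00946). In both the level with Nons peaked on day 5, and with Smarcc1.6 on day 6. The others were Zscan4b (2.35), Zscan4c (1.88), Zscan4e (2.98), Tdpoz4 (1.88), Gm8300 (1.98) and Zfp352 (1.49). The members of this list lie in families of near-identical copies, and how reads were shared among copies is not given, so the 8 are not independent and single members are uncertain. Without day 6 the count was 2 of 8.

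Genes of the primitive streak and mesoderm were lower in part, and more so late. Of 16 tested 0 rose and 3 fell, namely Fgf8, Rspo3 (-1.77) and Wnt3 (-1.29). The falls numbered 2 without day 5, 1 without day 6 and 1 with only the 8 Smarcc1.6 and Nons libraries. Rspo3 had a mean of 1.47 log2 CPM in Nons and -0.31 in Smarcc1.6. It reached the level for testing only through the Nons libraries, and its fall is given as a description. Wnt3, the ligand that starts primitive streak formation, was at 2.83, 3.52, 4.37 and 5.54 log2 CPM in Nons and at 0.87, 2.97, 3.09 and 4.17 in Smarcc1.6 (adjusted p = 0.00943). The median difference of the list was 0.17, -0.11, -0.97 and -1.72 on days 4, 5, 6 and 7. T (Brachyury), the defining factor of the streak, was at 0.97, 2.62, 5.03 and 7.49 in Nons and at 1.28, 1.27, 0.87 and 4.19 in Smarcc1.6. On day 4 it was no lower with Smarcc1.6, and on days 6 and 7 it was lower by 4.17 and 3.30. Its average difference, -2.13, did not pass (adjusted p = 0.116), but its change with day did. Eomes, a T-box factor of the streak, gave an average of -0.82 (adjusted p = 0.133). Mixl1, Mesp1 and Tbx6 were among the 11 members below the level for testing.

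Signalling components around these genes were lower in part. Of 36 Wnt pathway genes tested 5 fell and 1 rose, with a median of -0.16. Wls, the carrier that takes Wnt ligands to the cell surface, was at 2.47, 4.06, 6.01 and 7.58 log2 CPM in Nons and at 0.92, 2.09, 4.34 and 6.42 in Smarcc1.6. It rose in both groups and was lower on every day, by 1.59 on average (adjusted p = 0.00027). The ligands Wnt3 and Wnt5b (-1.27), the signal enhancer Rspo3 and the transcription factor Sp8 (-1.57) fell as well. Rspo3 was tested only through its level in Nons, as given above. Porcn, the X-linked enzyme that lipid-modifies Wnt ligands, rose (1.04). The lower Wnt genes numbered 1 without day 6, 2 without day 5, 3 without the day 6 library of Nons and 1 with only the 8 Nons and Smarcc1.6 libraries. Of 25 genes of Nodal and activin signalling 4 fell and 0 rose, among them Fst, the nuclear mediator Foxh1 (-0.38) and the receptor Tgfbr1 (-0.29). Without day 5, without day 6 or with only those 8 libraries 0 of the 25 passed in limma (2083, 2360 and 2764 of all tested genes had an unadjusted p under 0.05), and without the day 5 or day 6 library of Nons 1 fell. Among 21 BMP genes the mediator Smad1 (-0.75) and the decoy receptor Bambi (-0.57) fell, which became 0 genes without day 5 and 1 without day 6 (limma). Of 25 FGF and ERK genes 2 rose, Fgf4 and Fgf17, and 2 fell, Fgf8 and the phosphatase Dusp4 (-0.62). Without day 5 or day 6 the FGF and ERK counts were 0 higher and 1 lower.

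**Figure D4:**
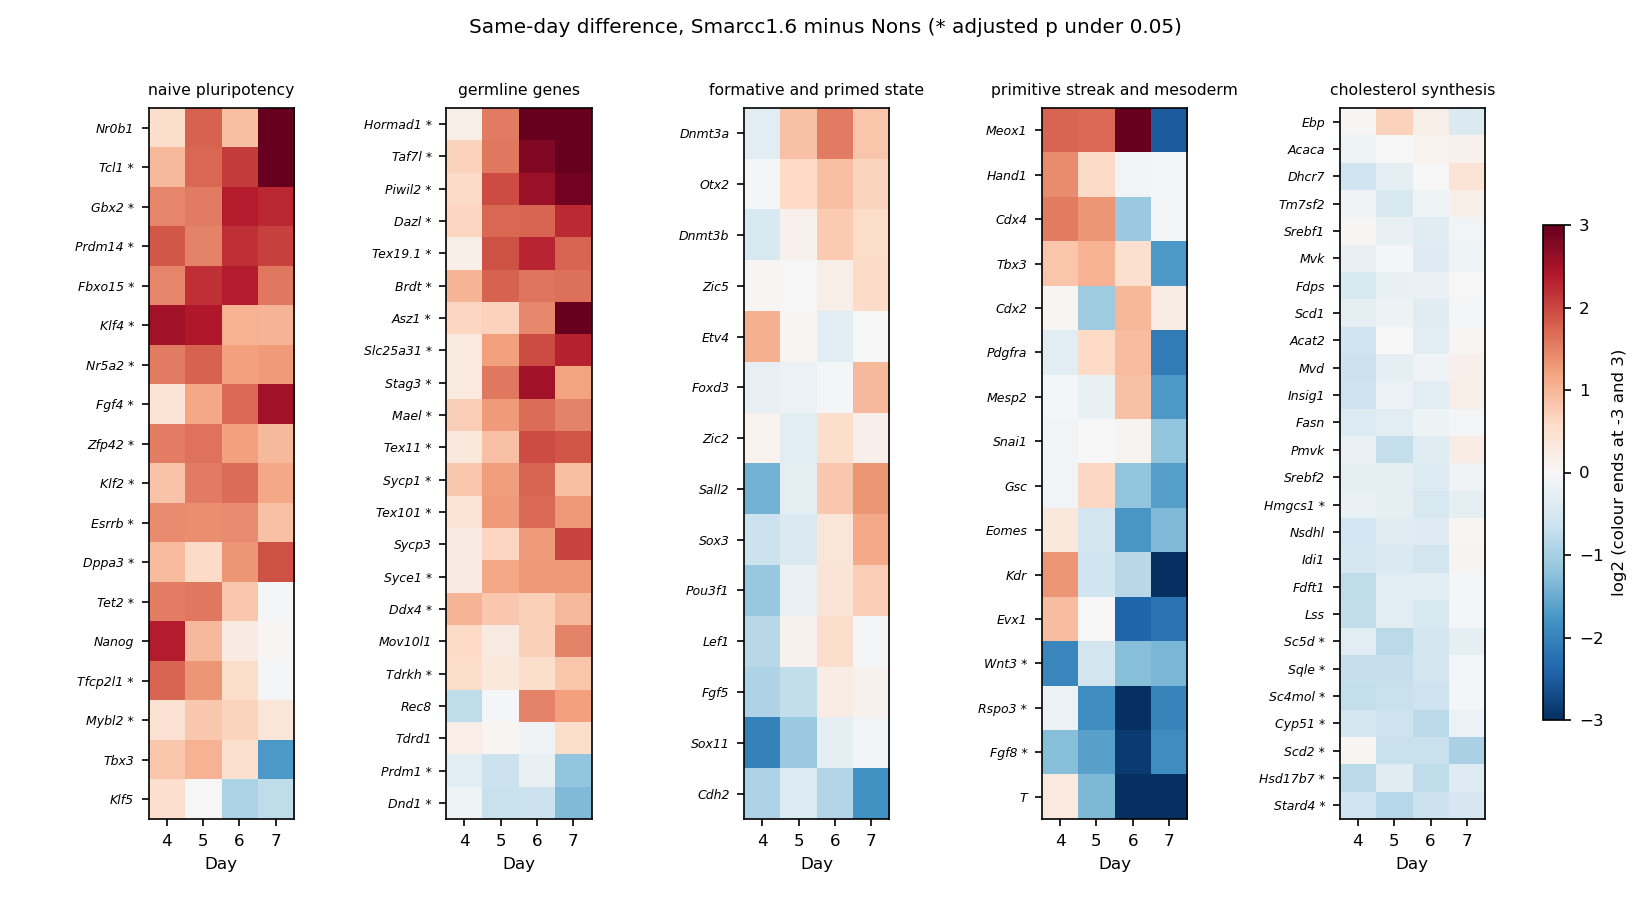
Same-day difference (Smarcc1.6 minus Nons, log2, colour) of the tested genes of 5 lists, apart from a few that are not reported, with days 4 to 7 from left to right and an asterisk where the average difference passed an adjusted p of 0.05. Most naive and germline genes are red on most days, many primitive streak genes turn blue on day 6 or 7, most formative genes run from blue or white to red, and cholesterol genes are pale blue on most days.

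Cholesterol synthesis genes were lower in part, by small amounts. Of 29 tested 11 fell and 0 rose, the median was -0.31, and 2 of the 29 genes had an average difference above 0. Sqle, squalene epoxidase, was at 7.30, 7.51, 7.65 and 7.34 log2 CPM in Nons and at 6.62, 6.81, 7.09 and 7.29 in Smarcc1.6 (-0.50, adjusted p = 0.0126), with all Smarcc1.6 libraries below all Nons libraries. The synthase Hmgcs1 (-0.31), the demethylase Cyp51 (-0.53) and the sterol carrier Stard4 (-0.65) fell, as did Sc5d, Sc4mol, Hsd17b7 and the desaturase Scd2. The median difference of the list was -0.51, -0.33, -0.40 and -0.05 on days 4 to 7, so it was smallest on day 7. Without day 6 there was 1 call, with a median of -0.26. Of 24 genes of insulin and IGF signalling 6 fell and 0 rose, with a median of -0.03. The receptor substrate Irs1 was at -0.85, 2.21, 4.31 and 5.59 log2 CPM in Nons and at -1.41, -0.67, 2.04 and 4.56 in Smarcc1.6 (-1.68, adjusted p = 0.0319). The others were the binding proteins Igfbp3 (-0.76) and Igfbp4 (-0.88), the RNA-binding protein Igf2bp3 (-0.46), the regulatory kinase subunit Pik3r1 (-0.44) and the transcription factor Foxo1 (-0.43). Without day 6 none of the 24 passed (limma), and in that fit 2360 of all tested genes had an unadjusted p under 0.05.

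Among the partners of the targeted gene, 25 of 28 tested BAF subunits did not pass. Beside Smarcc1, Bcl7c fell (-0.37) and Dpf1, a subunit of neuronal BAF, rose (0.68). Of 29 subunits of other remodellers Chd5 rose (0.74) and Chd7 fell (-0.63). Of 12 subunits of the Polycomb complex PRC2, which methylates histone H3 at lysine 27, 4 rose and 0 fell, with a median of 0.27. The 4 were the accessory subunits Phf19 (1.23), E130012A19Rik (0.50), Mtf2 (0.39) and Jarid2 (0.34). Without day 6 none of the 12 passed (limma). In PRC1, L3mbtl2 (0.50) and Bmi1 (0.44) rose among 22 tested. In DNA methylation the oxidases Tet1 (0.34) and Tet2 rose and the glycosylase Tdg fell (-0.37) among 18.

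Among 22 regulators of XCI 3 fell and 2 rose. The falls were Xist, Tsix and Satb1 (-0.91), a chromatin organiser, and the rises were Zfp42, which represses Xist, and Cdyl (0.52), a chromodomain protein. Reads of Tsix and Xist cannot be told apart where the genes overlap, so the fall of Tsix is not a separate result. Satb1 was at 2.15, 3.86, 4.71 and 4.07 log2 CPM in Nons and at 0.82, 2.35, 4.06 and 3.93 in Smarcc1.6. Rlim, the ubiquitin ligase that removes the Zfp42 protein, was at 8.31, 8.74, 8.82 and 8.61 in Nons and at 8.25, 8.30, 8.76 and 8.37 in Smarcc1.6 (-0.20, adjusted p = 0.0973). Smchd1, which maintains silencing on the inactive X, differed by -0.26 (adjusted p = 0.0753), and the Xist partners Spen (-0.16), Hnrnpu (-0.01), Hnrnpk (-0.01) and Lbr (-0.05) did not pass either. Of 13 genes known to escape XCI 1 rose, Syap1 (0.30).

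The X chromosome held more calls per gene than the autosomes, in both directions. Of 507 X-linked genes tested 61 were higher (12.03%) and 33 lower (6.51%), against 689 (5.35%) and 464 (3.60%) of 12890 autosomal genes. The median X-linked difference was 0.00, 0.06, 0.17 and 0.09 on days 4 to 7. The 3 largest X-linked rises were Taf7l, Nxf2 and Tktl1. Taf7l, a testis form of a TFIID subunit, was at 4.86, 4.61, 2.28 and -0.08 log2 CPM in Nons and at 5.55, 6.20, 5.06 and 2.96 in Smarcc1.6 (2.02, adjusted p = 0.00525). Nxf2, an RNA export factor, differed by 1.61 and Tktl1, a transketolase relative, by 1.55. The 3 largest X-linked falls were Heph (-1.56), a copper-dependent iron oxidase, Amot (-1.37), a scaffold that restrains YAP, and Tmem47 (-1.32). In the Rhox cluster of X-linked homeobox genes, whose members are closely related in sequence, Rhox1 (2.01) and Rhox13 (1.20) rose among 5 tested. The values combine both alleles, so silencing of either X was not read from them.

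The remaining lists had few called members. Neurog3, a neural and endocrine factor, had 231, 37, 1 and 0 reads in Nons and 308, 283, 237 and 96 in Smarcc1.6. Its mean was -2.14 log2 CPM in Nons and 2.22 in Smarcc1.6, so it reached the level for testing only through the knockdown libraries, and its difference (adjusted p = 0.0171) is given as a description. Tubb3 was the other of 7 neural genes to rise (0.84). In endoderm 4 of 12 rose, Cubn (1.95), Fgf17, Apoe (0.80) and Pth1r (0.71), while the endoderm factor Sox17 fell (-1.03). Without day 5, without day 6 or with only the 8 Smarcc1.6 and Nons libraries 0 of these 12 passed in limma. In those fits 2083, 2360 and 2764 of all tested genes had an unadjusted p under 0.05. In blood and endothelium Pecam1 (1.37) and Sox18 (1.61) rose among 9, and the blood gene Ptprc had at most 3 reads in each library. Sox18 had a mean of -0.67 log2 CPM in Nons and 0.94 in Smarcc1.6. It too reached the level for testing only through the knockdown libraries, and its rise is given as a description. In trophoblast and simple epithelium Dsp (-0.80), Tfap2a (-1.03) and Cldn6 (-0.89) fell among 18. Of 20 interferon response genes Ifitm1 (1.41), Ifitm2 (0.62) and Ifitm3 (0.59) rose, which are neighbouring and similar genes, and Eif2ak2 fell (-0.60). Of 25 targets of p53 3 rose, Gadd45a (0.78), Plk3 (0.54) and Ei24 (0.31). Of the 33 ephrin and semaphorin genes 5 fell and 0 rose, namely Epha1 (-0.59), Sema5a (-1.02), Ephb3 (-0.78), Efna4 (-0.44) and Plxnb1 (-0.51). In glycolysis and hypoxia Ankrd37 (0.79), Pdk1 (0.41), Pfkp (0.68) and Pfkm (0.51) rose and the lactate exporter Slc16a3 fell (-0.66) among 29. Of 21 Notch genes 3 rose, Notch4 (1.32), Dtx1 (0.65) and Rbpj (0.48). In retinoic acid signalling Stra8 (3.43) and Rarg (0.57) rose among 15, of which Stra8, with a mean of -1.22 log2 CPM in Nons and 2.21 in Smarcc1.6, also reached that level only through the knockdown libraries, and in imprinted genes Peg3 (-0.87), Meg3 (-0.65) and Impact (-0.37) fell among 27. In muscle and contractile genes Tnni1 rose (2.16) and the actin binders Flna (-0.53) and Actn1 (-0.45) fell among 19. Tnni1 had a mean of -1.06 log2 CPM in Nons and 1.10 in Smarcc1.6. It thus reached the level for testing only through the knockdown libraries, and its rise is given as a description. It had 4 and 2 reads in Nons on days 6 and 7, and its day 4 difference was -0.31. Actg1, a cytoskeletal actin in no list, fell by 0.34 on the log2 scale. Among 28 cyclins, their kinases and inhibitors, and related factors, Ccnd3 (0.49) and Mycn (0.39) rose and Cdk6 (-0.98) and Mycl1 (-0.38) fell. Of 22 genes of the epithelial to mesenchymal transition Zeb1 rose (0.91). None of 23 genes of the unfolded protein and amino acid response and none of 3 Hox genes passed in limma, against 3369 of all tested genes with an unadjusted p under 0.05.

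The effect of Smarcc1.6 was not the same on every day. A model with the same-day difference changing linearly with day called 339 genes (2.53% of those tested), of which the difference rose with day for 230 and fell for 109. Among the 230 the median difference went from -0.56 on day 4 through 0.08 and 0.77 to 1.42 on day 7. Among the 109 it went from 0.94 through 0.51 and -0.13 to -0.58. Of the 339 genes 89 had also been called for the average difference. Without day 5 the count was 166, and without day 7 it was 668.

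**Figure D5:**
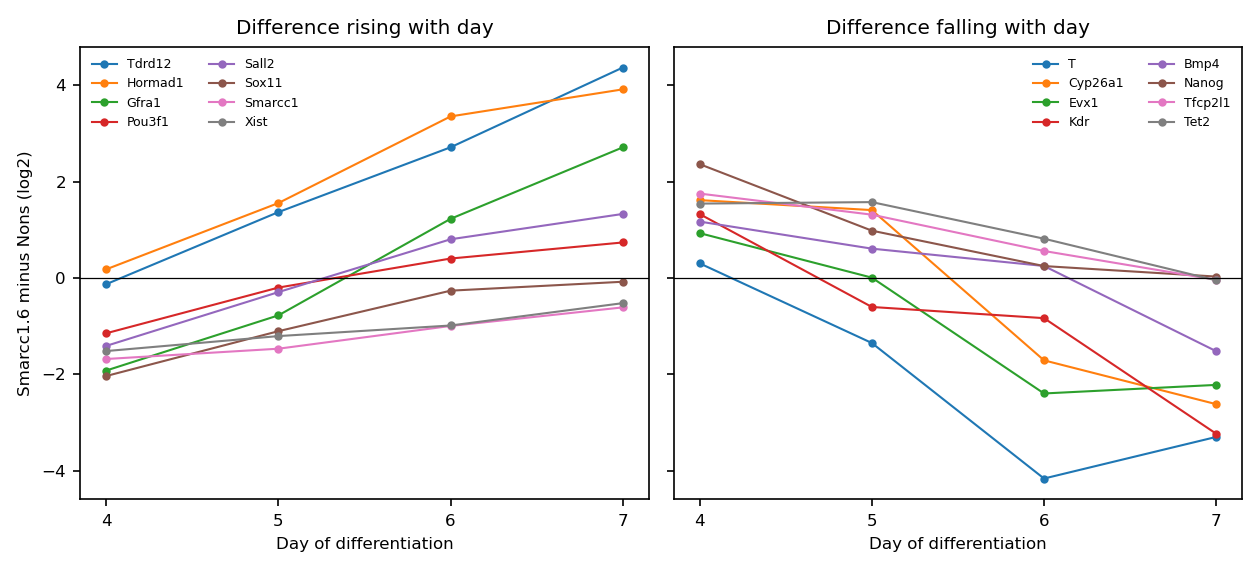
Same-day difference (Smarcc1.6 minus Nons, log2, y axis) by day (x axis) for 16 genes whose difference changed with day at an adjusted p under 0.05, rising on the left and falling on the right. Tdrd12 and Hormad1 began near 0 and reached 4.37 and 3.92, Pou3f1, Sall2 and Sox11 began below 0 and ended near or above it, and T, Cyp26a1, Evx1 and Kdr ended below -2.

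Among formative and primed state genes the list median moved from below 0 on day 4 to above 0 on day 7. None of the 14 tested passed for the average difference in limma, for which the median was 0.11. For the change with day 5 passed, all with a rising difference, against 230 rising among all 13406 tested genes. Pou3f1 (Oct6), a factor of the formative epiblast, was at 6.97, 7.19, 7.47 and 6.28 log2 CPM in Nons and at 5.82, 6.99, 7.88 and 7.01 in Smarcc1.6. It was lower on day 4 by 1.15 and higher on day 7 by 0.74 (0.63 per day, adjusted p = 0.00424). Sall2 went from -1.41 to 1.33 (0.93 per day, adjusted p = 0.000981), Sox3 from -0.64 to 1.14, Fgf5 from -0.93 to 0.12 and Sox11 from -2.04 to -0.08. Sox3 and Sall2 were highest on day 5 in Nons and on day 6 in Smarcc1.6. Their Nons levels on days 5 and 6 were close, at 4.43 and 4.34 log2 CPM for Sox3 and 5.91 and 5.81 for Sall2. Pou3f1, Fgf5 and Sox11 were highest on day 6 in both groups. The day 6 libraries differed in read assignment, so a shift of the peak day was not established. The list median was -0.55, -0.18, 0.38 and 0.56 on days 4 to 7.

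Other genes whose difference rose with day included 6 of the 22 germline genes, Dazl, Sycp3, Taf7l, Slc25a31, Hormad1 and Piwil2. Over all 13406 tested genes the difference rose for 230 and fell for 109. Dnmt3l, the cofactor of de novo DNA methylation, went from -0.18 to 2.04 (0.75 per day, adjusted p = 0.000426). Stra8, the retinoic acid response gene of meiosis, went from -0.06 to 5.98 (2.05 per day, adjusted p = 0.00335). It reached the level for testing only through the knockdown libraries, and its change is given as a description. Stra8 had 204, 68, 7 and 1 reads in Nons, so its late differences rest on values near the floor. In the Rhox cluster 3 of 5 passed. Tdrd12, a Tudor protein of the piRNA pathway chosen after its values were seen, went from -0.13 to 4.37 (1.48 per day, adjusted p = 7.05e-05). Among genes whose difference fell were 4 of the 16 streak and mesoderm genes, T (-1.36 per day, adjusted p = 0.0467), Eomes, Evx1 and Kdr. Cyp26a1, which degrades retinoic acid, was higher by 1.62 on day 4 and lower by 2.62 on day 7 (adjusted p = 0.00715). Bmp4 went from 1.17 to -1.52 and the Wnt target Axin2 from 0.64 to -0.98. In the naive list the difference closed for Nanog (2.37 to 0.03), Tfcp2l1 (1.75 to -0.04) and Tet2 (1.55 to -0.05), fell below 0 for Klf5, and grew for Fgf4 (0.41 to 2.53).

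Nanog, a core factor of the naive network, was at 6.43, 6.79, 7.00 and 7.94 log2 CPM in Nons and at 8.79, 7.78, 7.25 and 7.97 in Smarcc1.6. The level rose over the days in Nons, unlike that of Esrrb or Zfp42, and the groups met on day 7. The change of the difference passed at -0.77 per day (adjusted p = 0.00945).

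The time course of the called genes was read in the Smarcc1.7 libraries, which did not enter the difference itself though they shared its fit, and was given no test. There, 604 of the 750 genes higher with Smarcc1.6 (80.5%) fell from day 4 to day 7, with a median change of -1.40, against 45.4% of all tested genes. Of the 497 genes lower with Smarcc1.6, 441 (88.7%) rose from day 4 to day 7, with a median change of 1.41, against 54.6% of all tested genes. From day 4 to day 5 the shares were 74.7% and 82.5%.

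Smarcc1.6 and Smarcc1.7 were compared directly to see whether the hairpins differ. At an adjusted p of 0.05, 0 genes passed in limma, whereas 530 had an unadjusted p under 0.05. The median half-width of the 95% limits was 0.26 on the log2 scale, so smaller differences were not detectable for a typical gene even before adjustment. Side by side, the differences from Nons with Smarcc1.6 and Smarcc1.7 were 1.33 and 0.84 for the median of the naive list and 1.22 and 0.98 for the germline list. They were -0.43 and -0.67 for the streak list and -0.31 and -0.24 for cholesterol synthesis.

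Because a guide can also act through its seed, matches to the seed were counted in the longest annotated 3′ untranslated region of each of 11436 tested genes. The letters searched were CAGTTAC for Smarcc1.6, ATGAGCA for Smarcc1.7 and AGAGTAA for Nons, on the transcript strand. A Smarcc1.6 match was present in 9.70% of tested genes, in 8.45% of genes called higher and in 16.4% of genes called lower. The Smarcc1.7 match was present in 17.03% of the same lower genes against 10.7% of tested genes, and the Nons match in 14.2% against 10.3%. The lower genes had longer regions, with a median of 1853 bases against 1192 for all tested. Per kilobase the Smarcc1.6 match occurred 0.0848 times in lower genes, 0.0698 in higher genes and 0.0642 in all tested. The Smarcc1.7 match occurred 0.0829, 0.0652 and 0.0736 times and the Nons match 0.0688, 0.0732 and 0.0702 times. The median difference of genes with 0, 1 and 2 or more Smarcc1.6 matches was 0.00, -0.03 and -0.04, for the Smarcc1.7 match it was 0.00, -0.03 and -0.05, and for the Nons match it was 0.00, -0.03 and -0.06.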

How the data were processed

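RNA was sequenced from Nons, Smarcc1.6 and Smarcc1.7 cultures of female F1 mESC on days 4 to 7, with 1 library per group and day. The authors trimmed paired-end reads, aligned them to an mm10 genome with strain variants masked, counted reads per gene in Seqmonk and deposited 1 table of log2 CPM values. Which aligner each library used, the strand setting and the annotation version were not given in the sources used here, and per the labels TopHat2 2.0.12 was among the tools. The values moved in whole-read steps, which gave the depth of each library (13993440 to 63548079 mapped reads over the 12 libraries), and 0 reads had been written as 0.9 reads. The number of value columns with no sample was 0.

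The 12 libraries were fitted with limma 3.58.1 (R 4.3.3) with day as a factor and 3 groups, a trended prior and Benjamini-Hochberg adjustment over 13406 genes. All adjusted p-values come from this fit, or from one with the product of group and day, and the threshold was 0.05. Day pairs the groups per the labels. The exact permutation test exchanged labels within days and cannot go below 0.125. Gene lists held symbols as in the table. The text names Smarcc1, Xist and Tsix, then called genes with 1 sign on all 4 days and a mean of at least 2 log2 CPM (the 8 largest rises and falls, 3 X-linked each way and the 3 of highest level), and up to 5 called members per list with the smallest p, whatever their level or sign by day. Genes named beyond that were chosen after their values were seen. The comparison, lists and rules were chosen with earlier results of these data known. Alternatives were other libraries, no day term, other filters, priors and centring, 2 added reads, voom weights on recovered reads, thinning to the smallest depth, and leaving out days and libraries. The main fit was also run on simulated counts drawn independently for each library. Such data cannot show how an effect shared by the libraries of a group would change the calls. Promoters were RefSeq windows of GRCm38.p6, and guide sites were sought in GENCODE transcripts of the same build. The Day0 library entered no comparison. A few genes are counted in their lists but not reported here.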

Additional observations from a re-analysis of the deposited data

Results flagged for a closer look

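For each of 130 named genes the 4 same-day differences between Smarcc1.6 and Nons were examined for a day that lies far from the other 3 (Dixon's criterion at the 95% level), which chance alone gives in about 1 in 20 groups, and 9 genes had such a day. On day 4 the difference of Col1a2 was 1.89, that of Amot -0.544 and that of Cubn 0.0544, each closer to 0 than on the later days. On day 5 the PRC2 subunit gene E130012A19Rik stood out at 1.09 and Igf2bp3 at -0.854, and on day 6 Bmi1 stood out at 0.812. On day 7 Esrrb was at 0.872, closer to 0 than on the earlier days, whereas Dppa2 was at 1.48 and Ankrd37 at 1.34, farther from 0.

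For 17 of the 130 genes the difference changed with day at a limma adjusted p under 0.05. Over all tested genes 339 did so (2.53%). Among the 1247 genes called for the average difference, from which most named genes were taken, 89 did so. The targeted gene Smarcc1 changed by 0.369 log2 units per day and Xist by 0.32, both from a lower level towards Nons. The difference of germline and meiotic genes grew, by 0.823 per day for Taf7l, 0.482 for Dazl and 2.05 for Stra8, and in the Rhox cluster by 0.723 for Rhox13 and 1.36 for Rhox1. Stra8 reached the level for testing only through the knockdown libraries, and its change is given as a description. The difference grew by 1.77 per day for 1700029P11Rik, 1.06 for Jam2, 0.974 for Gm12794, 0.688 for Tktl1, 0.366 for Dppa5a, 0.515 for Pecam1 and 0.69 for Fgf4. In Nons on day 7, 1700029P11Rik and Jam2 had 2 reads each, Rhox1 3 and Stra8 1, so their growth rests in part on values near the floor. For Cldn6 (0.577 per day) and Slc16a3 (0.353 per day) a deficit on day 4 narrowed. For Tet2 the difference declined, at -0.554 per day.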

How the results depend on the processing

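No called gene reversed its direction under the alternatives run. These reuse the libraries on which the calls were made, so reversals were unlikely from the start. The number of calls depended on which libraries entered, and the medians of some lists crossed 0. For example, the streak and mesoderm median of -0.43 became 0.05 without the day 7 library of Nons, and the formative and primed median of 0.11 became -0.10 without day 7 and -0.07 without the day 7 library of Nons. With only the 8 Smarcc1.6 and Nons libraries 57 genes were called, 35 higher and 22 lower. Without the pairing by day (no replicate block) 0 genes were called, with 0 higher and 0 lower, and 353 had an unadjusted p under 0.05. A minimum mean of 2 log2 CPM gave 495 higher and 400 lower genes, and a prior without trend gave 565 higher and 300 lower genes. In the Smarcc1.7 libraries the shares from day 4 to day 5 were 74.67% falling among higher genes and 82.5% rising among lower genes. The cause was not tested. Leaving out 1 day or library at a time gave 178 to 1694 calls, 134 to 972 higher, 43 to 738 lower and 166 to 668 genes changing with day. The lowest counts came without day 5 (178) and day 6 (202). Without the day 5 library of Nons or Smarcc1.6 they were 533 and 352, and without that of day 6 they were 676 and 490. Smarcc1 ranged from -1.382 to -1.024 and Xist from -1.236 to -0.9049. Between the hairpins 0 genes were called in each such fit, with 267 to 569 at an unadjusted p under 0.05. Of the 133 named genes 121 kept their call with voom weights, 119 after thinning, 43 without day 5, 40 without day 6 and 17 with 8 libraries. Centring on the autosomal median moved the split of calls to 790 higher and 436 lower. Depth limits genes near the floor of 3 reads.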
